A study of Mus musculus with 14 samples.

Results

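The Hox genes of mouse caudal intervertebral discs are the protein-coding genes whose symbol is Hoxa, Hoxb, Hoxc or Hoxd followed by a number. There are 39 of them among the 55487 genes of the count table, chosen by name alone. Cluster A on chromosome 6 holds 11, cluster B on chromosome 11 holds 10, and clusters C on chromosome 15 and D on chromosome 2 hold 9 each. RNA was measured by RNA-seq in 14 male mice, with 5 discs of the tail, from the disc between coccygeal vertebrae 7 and 8 to that between 11 and 12, pooled per mouse. The db/db mice (n = 3) are homozygous for the db allele of *Lepr*, a mutation of the leptin receptor, and the db/+ mice (n = 3) are their heterozygous littermates, so that the controls of this model carry 1 copy of the mutant allele. Both were 12 weeks old. The STZ-HFD mice (n = 4) were C57BL/6J by the labels, began at 12 weeks of age with 4 to 6 weeks of high-fat diet, received 100 mg/kg of streptozotocin (STZ), a toxin of insulin-producing cells, once, and stayed on the diet for 12 more weeks. The diet is given as 80% of calories from fat in the labels and as 60% in the methods. The Con+Veh mice (n = 4), labelled wild type, were of the same strain and cohort and received chow and the buffer alone. The db mice differ from the others in genotype, age and schedule, and their background strain is not given here. None of these, nor strain, can be told apart from cohort.

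Hox proteins are homeodomain transcription factors that give cells their position along the head-to-tail axis. Genes of the 4 clusters that occupy the same place form a paralog group, numbered from 1 at the 3′ end to 13 at the 5′ end of a cluster, and the order of the genes along a cluster follows the order in which they come on in the embryo and the level of the axis at which they do so. Genes near the 3′ end act in the hindbrain and neck, those of the middle in the trunk, and those near the 5′ end in the lumbar, sacral and tail region and in the distal limbs. Adult mesenchymal cells keep much of this positional pattern.

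Each library was a separate mouse by its label. Libraries held 16076908 to 58943169 counts, of which ribosomal RNA genes took 28.1% to 39.7% in the db mice and 44.4% to 60.2% in the others. All libraries share 1 batch label. Reads of the Hox genes numbered 3390 to 22264 per library, and 34 to 39 of the 39 genes had at least 1 read. The label of disc tissue was checked against marker genes. The 11 cartilage and annulus markers, which include *Acan* and *Col2a1*, summed to 28928 to 42592 CPM (counts scaled to the size of the library) in db/+, 14717 to 30203 in db/db, 2791 to 5930 in Con+Veh and 1404 to 3220 in STZ-HFD. The 8 nucleus pulposus and notochord markers summed to 633 to 4425 CPM in db/+ and 960 to 1280 in db/db. In Con+Veh they summed to 2001 to 5738 CPM, and in STZ-HFD to 3546 to 7786. Among them, *Car3* averaged 2952 CPM, *Cd24a* 263, the notochord gene *T* 122, *Krt19* 60.9, *Krt8* 28.4 and *Krt18* 3.38. *Shh* and *Noto* were at 0 in 8 and 11 of the 14 libraries. Skeletal muscle markers were also present, at 2714 to 8270 CPM in the db mice and 7098 to 20247 in the others, so RNA of muscle was measured along with that of disc. The 6 keratinocyte markers summed to at most 13.6 CPM. In such bulk samples, fewer cells of a type and less RNA per cell cannot be told apart.

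One library stood apart. Replicate 1 of STZ-HFD, the shallowest, had the highest value of all 14 libraries for 64% of the 31763 genes with reads and a mean under 1 CPM, whereas each other library had the highest value for 1.44% to 4.28% of them. It was highest for 8 of the 39 Hox genes, most of them hardly detected elsewhere, and these are given with and without it. *Hoxd13* reached 1.08 in it, in RPKM (CPM scaled by TMM, per kilobase of exon), against 0.0443 ± 0.0564 (SD, n = 3) in the other STZ-HFD libraries. *Hoxb1*, a hindbrain gene, reached 0.513 against 0.0531 ± 0.0710.

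The clusters also hold 5 loci that encode microRNAs of the miR-10 and miR-196 families. They are printed because their seeds, bases 2 to 8 in capitals, match the 3′ untranslated regions of Hox genes that the discs expressed. The microRNA sequences are from RefSeq, with positions on GRCm38.p6. The miR-10a-5p locus lies at chr11:96317186-96317208 (+) in cluster B, and miR-10b-5p at chr2:74726074-74726096 (+) in cluster D. The miR-196a-5p sequence is present at chr11:96265187-96265208 (+) in cluster B and at chr15:102973365-102973386 (+) in cluster C, and miR-196b-5p at chr6:52230129-52230150 (-) in cluster A. The family members share a seed and differ in the rest of the sequence.
miR-10a-5p: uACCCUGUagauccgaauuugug
miR-10b-5p: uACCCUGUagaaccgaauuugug
miR-196a-5p: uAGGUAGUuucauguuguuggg
miR-196b-5p: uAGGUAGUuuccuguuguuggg

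The match to the miR-196 seed, ACTACCT, was present in the annotated 3′ untranslated region of 8 of the 38 Hox genes that have one (21.1%), against 6.21% of all 20515 genes. These were *Hoxa4*, *Hoxa5*, *Hoxa7*, *Hoxa9*, *Hoxb1*, *Hoxb6*, *Hoxb7* and *Hoxc8*. The match to the miR-10 seed, ACAGGGT, was present in 4 of 38 (10.5%), among them *Hoxa3* and *Hoxb3*, against 12.6% of all genes. These regions are those of the longest protein-coding transcript of each gene in GENCODE M21, and the site below is from the same source. *Hoxb8*, one of the most abundant Hox genes here, has the longest pairing with miR-196a, which is known to cleave its message. The site lies at chr11:96284888-96284909 (+) and is printed with the bases that pair in a Watson-Crick manner in capitals.
Hoxb8 site for miR-196a: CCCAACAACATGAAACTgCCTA

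It pairs at 21 of 22 positions, and the next best site among the Hox genes, in *Hoxd8*, at 15 of 22. Mature microRNAs were not measured here. The genes of these microRNA loci had 0 to 4 reads per library, apart from *Mir196a-2* with 0 to 35. A match is a description of the sequence and says nothing of its use in these discs.

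The Hox level of the discs was carried by genes from the middle and the 5′ end of the clusters. Over all 14 libraries, the highest means were those of *Hoxd8* (10.4 RPKM, range 3.48 to 24.9), *Hoxc10* (8.21, range 5.45 to 14.2), *Hoxc9* (6.52, range 3.52 to 9.36), *Hoxc13* (6.45, range 2.92 to 12.9) and *Hoxb8* (6.05, range 1.83 to 14.4). All levels compared between genes are per length and, unless stated, from gene counts. With estimated counts per transcript instead, *Hoxd8* (9.98 RPKM) lay below *Hoxc10* (24.1), *Hoxc9* (17.9), *Hoxc13* (16.7), *Hoxa7* (13.6), *Hoxb8* (12.1) and *Hoxd9* (10.3). The order of the leading genes thus depends on the counts used. A mean of at least 1 RPKM was reached by 26 of the 39 genes, and by 15 of them in every library. In the order of the 39 means, the ranges of all 38 neighbouring pairs overlapped, so no single step of the order was larger than the spread over libraries. Steps within a cluster or paralog group were larger, and the plot of levels by gene shows them.

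**Figure D1:**
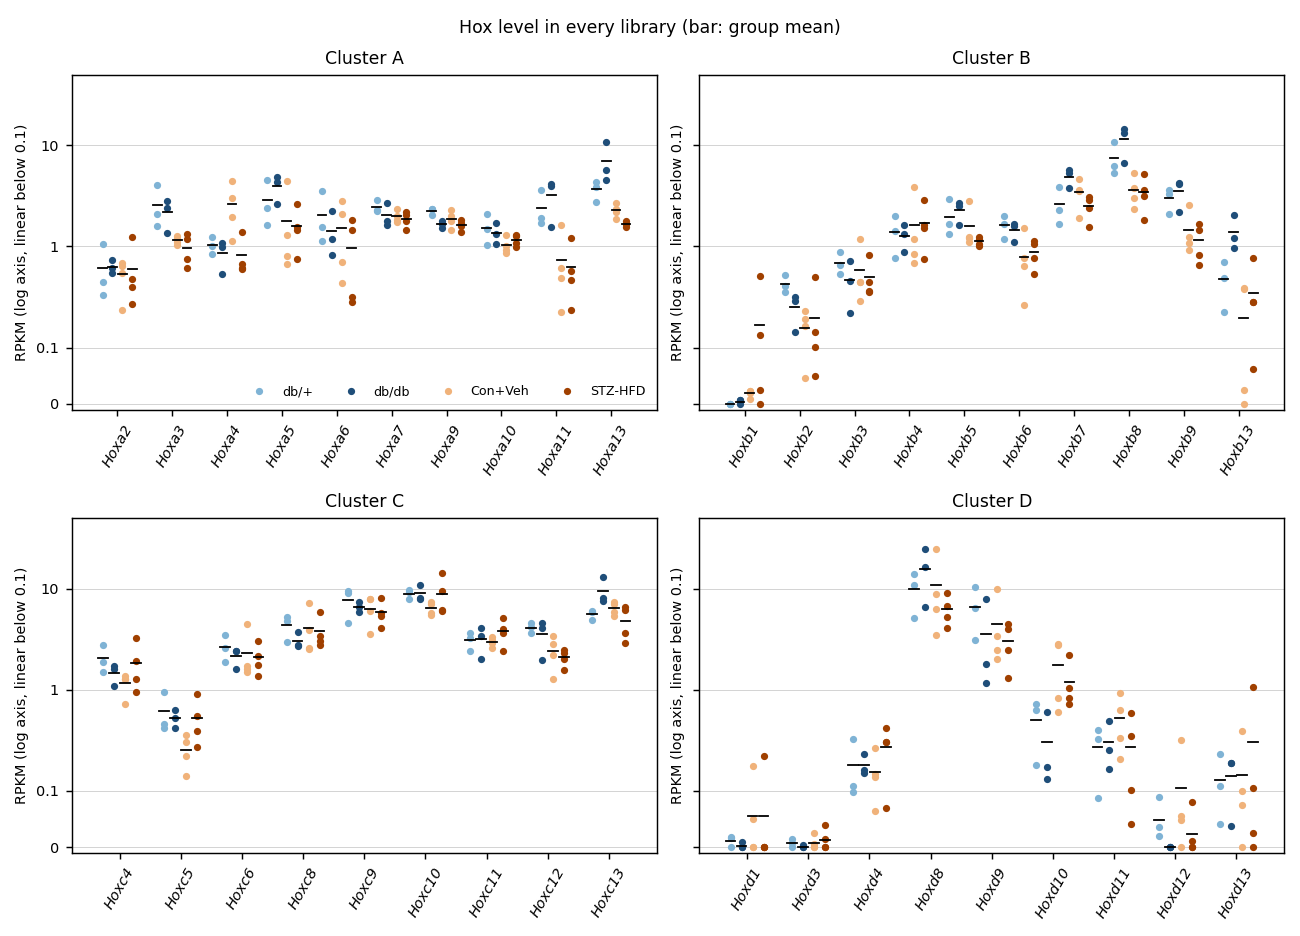
Level of 38 of the 39 Hox genes in RPKM, with 1 panel per cluster and the genes in paralog order on the horizontal axis. Points are libraries, colours the 4 groups and bars group means, and the vertical axis is logarithmic above 0.1 and linear below. Cluster C is high from *Hoxc8* to *Hoxc13*, and cluster D is high at *Hoxd8* and *Hoxd9* and low on both sides of them.

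In cluster C, the genes from *Hoxc8* to *Hoxc13* were all among the higher ones, with means of 3.82 RPKM for *Hoxc8*, 3.28 for *Hoxc11* and 2.93 for *Hoxc12* beside the genes named above. *Hoxc4* (1.61), *Hoxc5* (0.469) and *Hoxc6* (2.29) were lower. By group means, this cluster gave the largest share of the summed Hox level in each group. In replicate 2 of Con+Veh, however, cluster D held 41.6% and cluster C 29.3%. The mean share of cluster C was 40.0% ± 3.29 (SD, n = 3) in db/+, 35.9% ± 5.03 (n = 3) in db/db, 41.3% ± 8.30 (n = 4) in Con+Veh and 48.4% ± 5.71 (n = 4) in STZ-HFD. *Hoxc10*, which acts in the lumbar region and hindlimb, was the highest gene of the cluster, with 7.85, 9.24 and 9.63 RPKM in db/+, 7.84, 8.09 and 10.9 in db/db, 5.45, 7.42, 5.79 and 7.06 in Con+Veh and 5.99, 6.12, 14.2 and 9.36 in STZ-HFD. Its values in db/+ and db/db interleave, and 2 STZ-HFD libraries lie above all Con+Veh libraries.

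Cluster D was read in its middle. *Hoxd8* had 5.11, 10.9 and 13.9 RPKM in db/+, 6.55, 16.3 and 24.5 in db/db, 3.48, 24.9, 8.77 and 6.24 in Con+Veh and 4.05, 5.21, 6.79 and 8.99 in STZ-HFD. The Con+Veh libraries alone span the whole range, and the 4 groups overlap. Its 5′ neighbour *Hoxd9* averaged 4.34 RPKM and was above *Hoxd10* (1.02) in 14 of 14 libraries. Further 5′, *Hoxd11* (0.351), *Hoxd12* (0.0476) and *Hoxd13* (0.185) were low, and *Hoxd13* is known from digits and the genital tubercle. On the 3′ side, *Hoxd4* (0.200), *Hoxd3* (0.00803) and *Hoxd1* (0.0350) were near 0. *Hoxd3* and *Hoxd4* share 62.3% and 52.3% of their exon bases with other genes on the same strand, so their counts are uncertain.

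The high *Hoxd8* and the low *Hoxd10* and *Hoxd13* lie in 1 cluster on chromosome 2, all on the + strand, with *Hoxd9* between the first pair and *Hoxd11* and *Hoxd12* between the last. The 250 bases before their annotated starts are printed 5′ to 3′ to show how the stretches differ in CG dinucleotides, which are in capitals. They are from RefSeq, GRCm38.p6, at chr2:74704365-74704614 for *Hoxd8*, chr2:74691641-74691890 for *Hoxd10* and chr2:74667975-74668224 for *Hoxd13*.
Hoxd8 upstream: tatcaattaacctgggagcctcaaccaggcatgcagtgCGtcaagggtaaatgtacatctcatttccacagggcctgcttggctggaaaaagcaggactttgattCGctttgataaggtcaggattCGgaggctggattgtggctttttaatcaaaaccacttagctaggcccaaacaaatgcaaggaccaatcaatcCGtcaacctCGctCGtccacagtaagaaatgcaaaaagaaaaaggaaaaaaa
Hoxd10 upstream: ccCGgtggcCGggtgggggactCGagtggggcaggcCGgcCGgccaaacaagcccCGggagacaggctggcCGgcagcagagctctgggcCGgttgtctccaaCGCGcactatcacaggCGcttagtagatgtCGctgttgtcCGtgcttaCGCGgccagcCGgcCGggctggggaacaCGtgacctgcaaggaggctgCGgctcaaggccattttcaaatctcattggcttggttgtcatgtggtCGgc
Hoxd13 upstream: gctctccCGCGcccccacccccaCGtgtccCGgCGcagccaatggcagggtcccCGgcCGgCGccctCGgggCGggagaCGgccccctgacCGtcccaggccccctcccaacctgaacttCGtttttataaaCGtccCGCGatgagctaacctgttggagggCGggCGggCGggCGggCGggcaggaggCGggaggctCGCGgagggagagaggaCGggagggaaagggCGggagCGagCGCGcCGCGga

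The *Hoxd8* stretch holds 6 CG dinucleotides, the *Hoxd10* stretch 20 and the *Hoxd13* stretch 31. Other Hox genes do not follow this order. The stretch of *Hoxa13*, the highest gene of cluster A by gene counts, holds 35. That of the low *Hoxd4* holds 3, and the stretches of *Hoxd11*, also low, hold 2 and 20. The median was 6 over 32851 such stretches of all genes and 12.5 over the 24 stretches found for 22 of the Hox genes. The letters TATAAA, searched on the strand of the gene, are in the *Hoxd13* stretch and in 1 of the 24 Hox stretches (4.17%), against 7.59% of all. The letters TTTATG, a Cdx-type motif searched on both strands, are in 5 of the 24 (20.8%, those of *Hoxa7*, *Hoxb8*, *Hoxd3*, *Hoxd4* and *Hoxd11*), against 10.8% of all.

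In cluster A the highest gene by gene counts was *Hoxa13*, which acts in the hindgut, tail and distal limbs, with a mean of 3.42 RPKM. The others with a mean over 1 were *Hoxa3* (1.63), *Hoxa4* (1.39), *Hoxa5* (2.43), *Hoxa6* (1.46), *Hoxa7* (2.07), *Hoxa9* (1.84), *Hoxa10* (1.24) and *Hoxa11* (1.59). *Hoxa2* (0.590), a hindbrain gene, was lower. With transcript counts *Hoxa7* (13.6) lay above *Hoxa13* (7.23). In cluster B, *Hoxb8* had 6.21, 5.35 and 10.7 RPKM in db/+, 6.68, 13.3 and 14.4 in db/db, 2.33, 2.99, 3.80 and 5.32 in Con+Veh and 3.59, 3.12, 5.15 and 1.83 in STZ-HFD. Every db library lies above every other library, by little at the nearest pair. The rest of cluster B was *Hoxb7* (3.30), *Hoxb9* (2.14), *Hoxb5* (1.68), *Hoxb4* (1.53) and *Hoxb6* (1.14), and, below 1, *Hoxb3* (0.558), *Hoxb13* (0.557), *Hoxb2* (0.247) and *Hoxb1* (0.0544). Some of these counts are uncertain because the strand used in counting is not stated. *Hoxb3* shares 52.9% of its exon bases with the antisense gene *Hoxb3os*, *Hoxb2* 27.3% with the same gene, *Hoxa11* 35.0% with *Hoxa11os*, *Hoxa7* 20.4% with *Hoxaas3* and *Hoxa4* 16% with *Gm29430*. *Hoxa3* shares 25.4% with several genes on the opposite strand.

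By paralog group, the summed level was 0.837 RPKM in group 2, 2.19 in group 3, 4.73 in group 4, 4.58 in group 5, 4.88 in group 6, 5.37 in group 7, 20.3 in group 8, 14.8 in group 9, 10.5 in group 10, 5.22 in group 11, 2.98 in group 12 and 10.6 in group 13. A single gene gave most of several sums. *Hoxc12* made up 98.4% of group 12, *Hoxc10* 78.4% of group 10, *Hoxc13* 60.8% of group 13 and *Hoxd8* 51.3% of group 8. Groups 9 to 13 lie toward the 5′ end of the clusters. They held 51.9% ± 5.77 of the Hox level in db/+, 49.0% ± 6.34 in db/db, 49.5% ± 5.42 in Con+Veh and 53.0% ± 4.33 in STZ-HFD. Groups 1 to 4 held 7.06% to 10.8% on average. The shares of groups 9 to 13 differed by less than the SD between libraries. With the transcript table in place of the gene counts, groups 9 to 13 held 58.0% in Con+Veh and 58.6% in STZ-HFD. The profile of the 39 genes was alike in all mice. Spearman's rho between libraries was 0.782 to 0.963 within a group (18 pairs, median 0.900) and 0.668 to 0.952 between groups (73 pairs, median 0.865), as a description of libraries that share the tissue and the gene lengths.

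**Figure D2:**
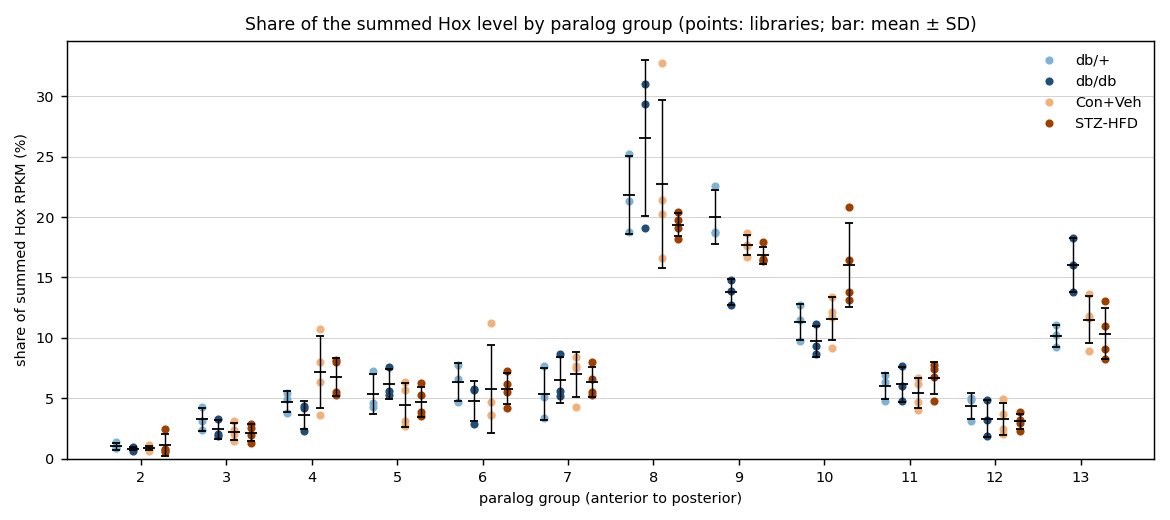
Share of the summed Hox RPKM, in percent, for paralog groups 2 to 13, with points for libraries and bars for mean ± SD in the 4 groups. Group 8 is the highest in every group, and in db/db group 13 lies above db/+ and group 9 below it.

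Group 13, at the 5′ end of the clusters, has 4 paralogs, and no discs from outside the tail were measured for comparison. *Hoxc13*, known also from hair and nails, was above *Hoxa13* in 14 of 14 libraries and above *Hoxb13* in 14 of 14, and *Hoxa13* was above *Hoxd13* in 14 of 14. The mean of *Hoxc13* was 35.0 times that of *Hoxd13*, or 58.0 times without replicate 1 of STZ-HFD. Group 13 held 10.2% ± 0.914 of the Hox level in db/+, 16% ± 2.22 in db/db, 11.5% ± 1.98 in Con+Veh and 10.3% ± 2.13 in STZ-HFD. The db/db libraries, at 13.8% to 18.3%, lie above the db/+ libraries, at 9.24% to 11.1%. Group 9 was the reverse, with 12.7% to 14.8% in db/db and 18.7% to 22.6% in db/+. A share of a sum falls when another part of the sum is higher, and no test was made of these shares.

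The first comparison asked whether db/db discs differ from db/+ discs in Hox expression. In a limma fit over 16915 genes, which included 32 of the 39 Hox genes, none of the 32 was called (1.66% of all genes tested were). A call needed an adjusted p below 0.05 and a log2 fold change of 1 or more in size. At an unadjusted p under 0.05 there were 6 (21.1% of all genes), with 3 in edgeR's quasi-likelihood test and 3 in DESeq2, which also called 0 Hox genes. The filter on low counts left out 7 genes, among them *Hoxb1* (0 to 29 counts per library), *Hoxd1* (0 to 10), *Hoxd3* (0 to 4), *Hoxd4* (4 to 62), *Hoxd12* (0 to 30) and *Hoxd13* (0 to 65). The median log2 fold change was -0.10 over the 32 Hox genes and -0.04 over all genes, with 13 positive and 19 negative.

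The genes with the lowest p in db/db included all 3 paralogs of group 13 that were tested. *Hoxa13* (chromosome 6, 52257694 to 52260880) had 4.38, 2.77 and 3.87 RPKM in db/+ and 4.57, 5.69 and 10.7 in db/db. All db/db libraries lie above all db/+ libraries, by little at the nearest pair. Its log2 fold change was 0.89 ± 0.27 (SE, adjusted p = 0.0875, limma). *Hoxb13* (chromosome 11, 96194316 to 96197447) had 0.223, 0.489 and 0.705 RPKM in db/+ and 1.21, 0.957 and 2.03 in db/db, again without overlap. The log2 fold change was 1.58 ± 0.52 (adjusted p = 0.108, limma). *Hoxc13* (chromosome 15, 102921103 to 102928814) had 4.92, 5.93 and 6.03 RPKM in db/+ and 7.60, 7.99 and 12.9 in db/db, also without overlap. Its log2 fold change was 0.72 ± 0.26 (adjusted p = 0.131, limma). Replicate 3 of db/db was the highest of the 3 for each of these genes. The 3 genes keep a positive sign in all 31 fits, and the adjusted p was 0.0751 to 0.548 for *Hoxa13*, 0.0697 to 0.680 for *Hoxb13* and 0.0412 to 0.423 for *Hoxc13*. The lowest of these, with a replicate block and the trend with GC content removed, came with a log2 fold change under 1.

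*Hoxb7*, a gene of the trunk, had 3.85, 2.29 and 1.66 RPKM in db/+ and 5.64, 3.76 and 5.32 in db/db, and the groups overlap by 1 library on each side. The log2 fold change was 0.98 ± 0.30 (adjusted p = 0.0875, limma). *Hoxd9* had 3.09, 10.4 and 6.42 RPKM in db/+ and 1.16, 1.80 and 7.83 in db/db, with a log2 fold change of -1.26 ± 0.57 (adjusted p = 0.215, limma). Its groups overlap, because replicate 3 of db/db is higher than 2 db/+ libraries. *Hoxa9* had 2.35, 2.04 and 2.33 RPKM in db/+ and 1.66, 1.78 and 1.51 in db/db, without overlap and with a log2 fold change of -0.43 ± 0.20 (adjusted p = 0.222, limma). Among the 32 genes, the db/db libraries were all higher in 3 (*Hoxa13*, *Hoxb13* and *Hoxc13*) and all lower in 2 (*Hoxa9* and *Hoxb2*, whose antisense overlap is given above), against 14.1% and 11.7% of all genes tested. *Hoxd8*, *Hoxb8* and *Hoxc10* lead clusters D, B and C by gene counts. Their limma log2 fold changes were 0.61 ± 0.46 (adjusted p = 0.471), 0.67 ± 0.35 (adjusted p = 0.289) and -0.0026 ± 0.25 (adjusted p = 0.996). All were within 2 SE of 0.

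**Figure D3:**
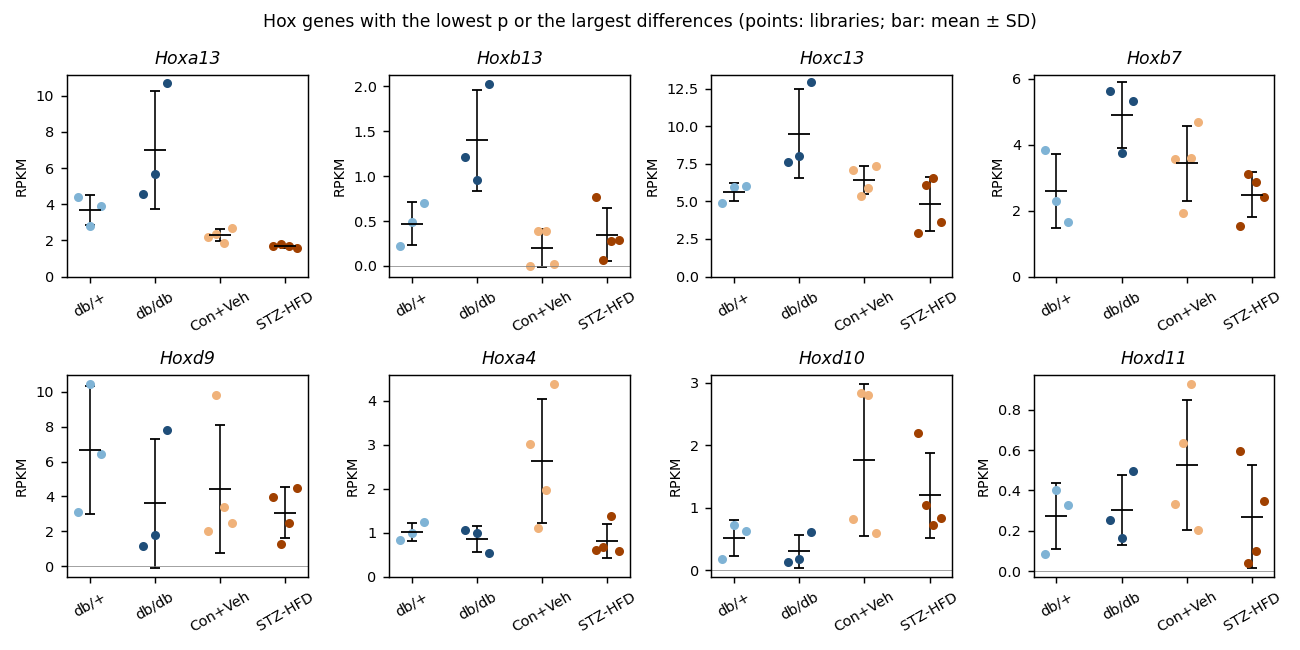
RPKM of 8 Hox genes by group, with points for libraries and bars for mean ± SD. *Hoxa13*, *Hoxb13* and *Hoxc13* are higher in all db/db libraries than in all db/+ libraries, and the *Hoxa4* libraries of STZ-HFD lie low except for 1.

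Other features varied between db/db and db/+ or with the fold changes over all genes. Their part in the Hox values was not tested beyond the fits given here. Over 16899 genes, a higher GC content went with a lower log2 fold change in db/db (Spearman's rho -0.43, a description across genes, which are not independent), and the Hox genes have a median GC content of 53.4% against 49.1%. With that trend removed, the median Hox log2 fold change was 0.11 in place of -0.10. Skeletal muscle markers summed to 2714 to 4517 CPM in db/db and 4246 to 8270 in db/+, and 1 of the 10 was called lower. With a muscle score in the fit the median was -0.45. Adipocyte markers summed to 303 to 559 CPM in db/db and 199 to 412 in db/+, with 4 of 8 called higher, and with their score in the fit the median was 0.028. Osteoblast and osteocyte markers (712 to 909 CPM in db/db and 1185 to 1835 in db/+) and endothelial markers (207 to 244 and 138 to 198) did not overlap between the groups, with 0 of 7 and 0 of 5 called. Cartilage and annulus markers (14717 to 30203 and 28928 to 42592) overlapped, with 0 of 11 called and a median log2 fold change of -0.42. Nucleus pulposus and notochord markers (960 to 1280 and 633 to 4425) also overlapped, with 0 of 6 tested called and a median of -1.02.

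The second comparison asked the same of STZ-HFD and Con+Veh. None of the 32 Hox genes was called by limma or by edgeR's quasi-likelihood test (2.61% of all genes were called by limma), and DESeq2 called 1, *Hoxa4*. At an unadjusted p under 0.05 there were 2 in limma (17.9% of all genes), 1 in edgeR and 2 in DESeq2. The median log2 fold change was -0.19, against -0.04 over all genes, with 12 positive and 20 negative. By cluster, 6 of the 9 genes of cluster C were positive and all 4 tested of cluster D negative.

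*Hoxa4* (chromosome 6, 52189671 to 52191753), a gene of the neck region, had 3.02, 1.12, 1.98 and 4.40 RPKM in Con+Veh and 0.619, 0.669, 1.38 and 0.597 in STZ-HFD. Replicate 3 of STZ-HFD lies within the Con+Veh range and the other 3 lie below it. The log2 fold change was -1.48 ± 0.48 (adjusted p = 0.102, limma). It was -1.66 in DESeq2 (adjusted p = 0.0330) and -1.78 without replicate 2 of Con+Veh (adjusted p = 0.0379, limma). With the transcript table it was 0.11, and over 31 fits the adjusted p was 0.0330 to 0.967. The sign differs with the table used, and *Hoxa4* was called in 2 fits, both on gene counts. *Hoxd11* had 0.335, 0.636, 0.926 and 0.206 RPKM in Con+Veh and 0.595, 0.0408, 0.103 and 0.346 in STZ-HFD. The log2 fold change was -1.71 ± 0.82 (adjusted p = 0.289, limma). *Hoxd10* had 0.823, 2.83, 2.80 and 0.598 RPKM in Con+Veh and 2.20, 1.04, 0.718 and 0.835 in STZ-HFD. The log2 fold change was -0.95 ± 0.59 (adjusted p = 0.428, limma). The groups overlap for both. Without replicate 1 of STZ-HFD the log2 fold changes were -1.94 for *Hoxd11*, -1.07 for *Hoxd10* and -1.37 for *Hoxa4*, with adjusted p of 0.246, 0.379 and 0.133 in limma, and again 0 Hox genes were called.

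*Hoxc10* had a log2 fold change of 0.64 ± 0.25 (adjusted p = 0.169, limma), or 0.75 without replicate 1 of STZ-HFD (adjusted p = 0.0996). *Hoxa13* had 2.21, 2.36, 1.88 and 2.7 RPKM in Con+Veh and 1.66, 1.78, 1.68 and 1.55 in STZ-HFD. It was the 1 Hox gene whose groups do not overlap (4.74% of all genes), and it was the lower group in STZ-HFD (2.77%). Its log2 fold change was -0.40 ± 0.35 (adjusted p = 0.600, limma). No Hox gene was higher without overlap (1.97% of all). *Hoxb8* (-0.35 ± 0.38, adjusted p = 0.681) and *Hoxd8* (-0.26 ± 0.43, adjusted p = 0.799) were within 1 SE of 0. Skeletal muscle markers summed to 7216 to 20247 CPM in STZ-HFD and 7098 to 9575 in Con+Veh, with 4 of 10 called higher, and cartilage markers to 1404 to 3220 and 2791 to 5930, with 6 of 11 called lower. Macrophage markers were called lower in 3 of 7. With a muscle score in the fit, the median Hox log2 fold change was 0.49 in place of -0.19. Adipocyte markers summed to 814 to 940 CPM in STZ-HFD and 382 to 872 in Con+Veh, with 1 of 8 called higher, and with their score in the fit the median was 0.0071. Their part in the Hox values was not tested otherwise.

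**Figure D4:**
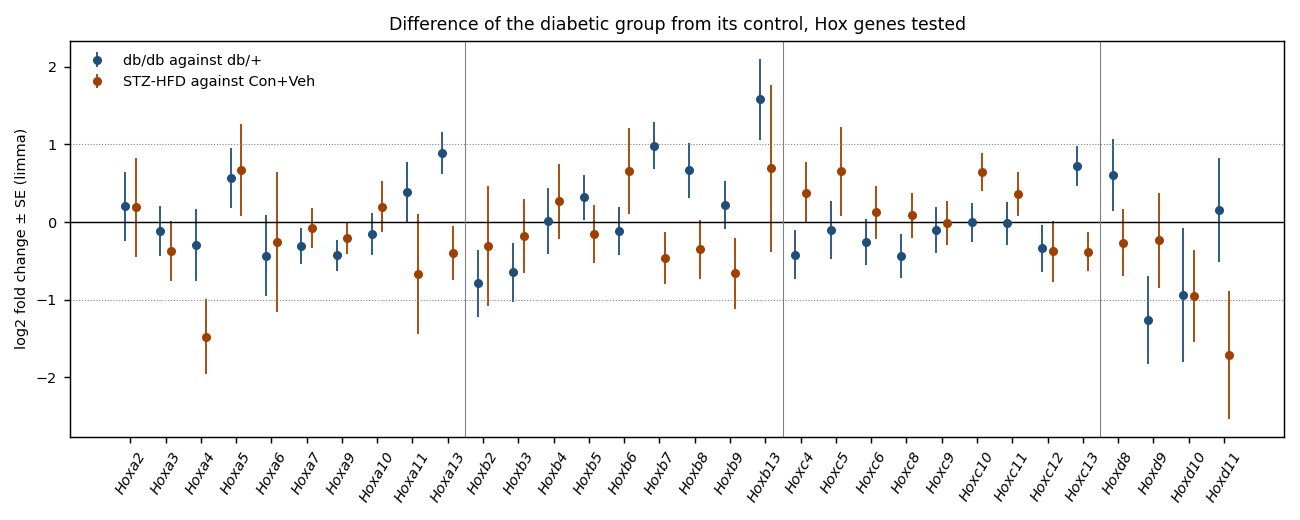
Log2 fold change ± SE from limma for the 32 Hox genes tested, in db/db against db/+ and STZ-HFD against Con+Veh, in cluster order. The 3 group 13 genes are above 0 in db/db, and the 4 genes of cluster D are below 0 in STZ-HFD.

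The difference between the models was tested directly, as the STZ-HFD change minus the db/db change. None of the 32 genes was called by limma, edgeR or DESeq2 (1.77% of all genes by limma), and at an unadjusted p under 0.05 there were 3 (17.3% of all genes), 3 in edgeR and 4 in DESeq2. The 3 in limma were *Hoxb7* (-1.44 ± 0.45, adjusted p = 0.106), *Hoxc13* (-1.10 ± 0.36, adjusted p = 0.122) and *Hoxa13* (-1.29 ± 0.44, adjusted p = 0.138). Each had a positive estimate in db/db and a negative one in STZ-HFD.

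The cohorts themselves differed in a few Hox genes, as a description, since strain background, age and handling cannot be told apart from cohort. Of the 32 genes, 3 were higher in all 6 db libraries than in all 8 others, namely *Hoxa13*, *Hoxb8* and *Hoxa3*, which has antisense overlap (2.48% of all genes tested), and 0 were lower in all of them (1.53%). *Hoxb8* ranged from 14.1 to 37.9 CPM in the db libraries and from 4.82 to 14 in the others, so the gap was small at its edge. The summed Hox level was 98.1 ± 15.6 RPKM in db/+, 110.9 ± 29.2 in db/db, 79.6 ± 9.29 in Con+Veh and 69.3 ± 6.91 in STZ-HFD.

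Hox proteins bind DNA with TALE cofactors (Pbx, Meis and Pknox), and their genes are held on or off by Trithorax and Polycomb complexes. Of 9 TALE genes, 8 were tested and 0 were called in any limma comparison. *Pknox2* averaged 26.4 CPM, *Pbx2* 19.6, *Pbx3* 14.8 and *Meis1* 11.3, and these cofactors were thus present. Of 9 Trithorax-type genes, among them *Kmt2a* at 277 CPM, 0 were called. Of 17 Polycomb genes, among them *Phc3* (105 CPM), *Ezh1* (90.4) and *Phc1* (76.2), 1 was called. *Bmi1*, a subunit of Polycomb repressive complex 1, had 18.9, 11.9 and 17.6 CPM in db/+ and 43.5, 36.9 and 35.2 in db/db, without overlap. It rose by a log2 fold change of 1.30 ± 0.29 (adjusted p = 0.0322, limma). The call was kept in 19 of 30 fits. It was lost with the trend with GC content removed (0.90, adjusted p = 0.123), also with a replicate block (0.89, adjusted p = 0.0954), and with a muscle score (1.29, adjusted p = 0.0893) or an adipocyte score (1.60, adjusted p = 0.358) in the limma fit. It was also lost in edgeR, in voom without quality weights, and without any one of the 3 db/db libraries or of replicates 2 and 3 of db/+. In STZ-HFD its limma log2 fold change was 0.16 ± 0.25 (adjusted p = 0.800). Of all genes tested, 1.23% were called higher in db/db.

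Of the upstream genes of axial patterning, 6 of 14 were tested and 0 were called. They were *T* (122 CPM), the retinoic acid receptors *Rara* (45.8), *Rarg* (14.1) and *Rarb* (1.12), *Gdf11* (8.84), which sets the trunk-to-tail switch, and *Nr6a1* (3.09). *Cdx1*, *Cdx2*, *Cdx4*, *Fgf8*, *Wnt3a* and *Cyp26a1*, embryonic tail bud genes, all missed the filter. They were highest in replicate 1 of STZ-HFD in 6 of 6 cases. That library was also highest for 64% of all genes with a mean under 1 CPM, so this is not particular to tail bud genes. Of 19 other positional homeobox and T-box genes, 14 were tested and 3 were called in STZ-HFD, with 0 in db/db. Among the 3, *Pax1* and *Pax9*, sclerotome genes needed for the vertebrae and discs, fell (1.31% of all genes were called lower, and 1.3% higher). *Pax1* had 21.2, 24.6, 40.6 and 44.0 CPM in Con+Veh and 11.2, 7.74, 9.88 and 12.8 in STZ-HFD. *Pax9* had 26.6, 18.8, 28.9 and 36.8 in Con+Veh and 10.7, 5.47, 10.5 and 14 in STZ-HFD, and neither gene's groups overlap. The log2 fold changes were -1.86 ± 0.37 for *Pax1* (adjusted p = 0.0134) and -1.50 ± 0.28 for *Pax9* (adjusted p = 0.0101, limma). The cartilage markers, given above, were lower in STZ-HFD and the muscle markers higher, and their part in *Pax1* and *Pax9* was not tested beyond the fit with a muscle score, in which neither stayed called, with log2 fold changes of -1.13 for *Pax1* (adjusted p = 0.246) and -1.62 for *Pax9* (adjusted p = 0.0639), and the fit with an adipocyte score, in which the same held at -1.74 (adjusted p = 0.298) and -1.42 (adjusted p = 0.247). The calls of both were kept in 22 of 31 fits, over which the log2 fold change was -2.13 to -1.13 for *Pax1* and -1.93 to -1.28 for *Pax9*. Neither was kept in edgeR, in voom without quality weights, with no filter on low counts, with transcript counts, or without replicate 3 or 4 of Con+Veh or replicate 3 of STZ-HFD. *Pax1* (-2.24, adjusted p = 0.0459) and *Pax9* (-1.74, adjusted p = 0.0386) also differed between the models in limma. These calls were kept in 12 and 13 of 30 fits and in neither case in edgeR, in voom without quality weights or with another filter on low counts.

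**Figure D5:**
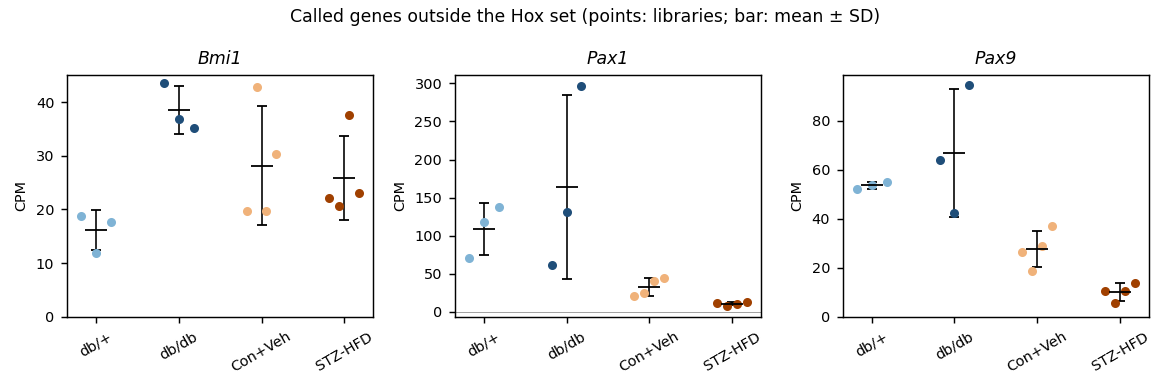
CPM of *Bmi1*, *Pax1* and *Pax9* by group, with points for libraries and bars for mean ± SD. *Bmi1* is higher in all db/db than in all db/+ libraries, and *Pax1* and *Pax9* are lower in all STZ-HFD than in all Con+Veh libraries.

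At the loci themselves, 44 genes that are not protein coding lie between the Hox genes, of which 9 were tested and 0 were called. Among them were *Hoxa11os* (4.58 CPM on average), *Hotair* (4.39), a long noncoding RNA of cluster C, and *Hoxd3os1* (2.09). *Hotair* had a log2 fold change of 0.63 ± 0.23 in db/db (adjusted p = 0.142, limma) and of -0.23 ± 0.27 in STZ-HFD (adjusted p = 0.713). Of 11 protein-coding genes at the borders of the clusters, 8 were tested and 0 were called. The median log2 fold change of these 8 was -0.00010 in db/db and 0.32 in STZ-HFD, where that of all genes was -0.04.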

How the data were processed

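Total RNA of caudal discs was amplified (1 to 50 ng per library, SeqPlex kit) and sequenced. The authors aligned the reads with STAR to GRCm38 (Ensembl release 101) and deposited gene counts from featureCounts, without normalization, and estimated counts per transcript from Salmon. Tool versions are left out because they could not be read with certainty. Groups came from the labels. Of 55774 lines, 287 repeated ones were used once.

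Genes with CPM above 1 in at least 3 libraries were tested in R 4.3.3 with edgeR 4.0.16 (TMM) and limma 3.58.1 (voomWithQualityWeights, 4 group means, Benjamini-Hochberg adjustment over 16915 genes). Library weights ran from 0.275 to 3.05. Per-gene RPKM used the union exon length of GENCODE M21. The test was tried on simulated counts, in which 200 genes per comparison were given a difference of 2 on the log2 scale. Of the changed genes that passed the filter on low counts, 55.7% were recovered for db/db against db/+ and 56.4% for STZ-HFD against Con+Veh. There were 3 and 4 other calls. A gene that was not called may therefore still differ by that much. Estimated counts were summed per gene and rounded for 1 alternative. DESeq2 1.42.0, edgeR's quasi-likelihood test, other filters, scaling, covariates and left-out libraries were further alternatives. Named were all members, members called, the 3 of largest change per model and the highest gene per cluster. The values of a few genes, 1 Hox gene among them, are not reported here. The members and lists were chosen with earlier results of these data known.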

Additional observations from a re-analysis of the deposited data

Results flagged for a closer look

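Within the groups of 4, 6 of 70 values tested had 1 library far from the other 3, as judged by its gap relative to the range of the group, where chance flags about 1 in 20. All were levels in RPKM. In STZ-HFD, *Hoxa4* was 1.38 in replicate 3, against 0.597 to 0.669 in the others. In Con+Veh replicate 1, *Hoxb4* was 3.88 (others 0.680 to 1.19), *Hoxb5* 2.81 (others 1.10 to 1.23) and *Hoxc6* 4.46 (others 1.51 to 1.71). Con+Veh replicate 2 had *Hoxa5* at 4.42 (others 0.666 to 1.29), and Con+Veh replicate 4 had *Hoxc4* at 0.719 (others 1.27 to 1.38). None of the 32 genes differed between the models by limma's test of the difference of the contrasts.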

How the results depend on the processing

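Of the Hox genes, 0 were called in the difference of the contrasts under every alternative. In db/db, 1 was called with no filter on low counts, *Hoxd12* (-3.69, adjusted p = 0.0167). It had 0 reads in every db/db library and 11, 3 and 6 in db/+, so the call rests on few reads. In STZ-HFD, 1 was called in DESeq2 and 0 to 1 with each library left out. Genes of the cofactor, chromatin, upstream and positional lists called in db/db were 1, with 0 in edgeR, in voom without quality weights, with the GC trend removed with and without a replicate block, with transcript counts and with muscle or adipocyte scores, 3 with a replicate block, 2 without both libraries whose names share an ending or with each model alone, and 0 to 2 with each library left out. In STZ-HFD they were 3, with 0 in edgeR, in voom without quality weights, with no filter, with transcript counts and with either score, and 0 to 5 with each library left out. In the difference they were 3, with 0 in edgeR, in voom without quality weights, with filterByExpr, no filter, transcript counts or the muscle score, 1 with the GC trend removed (also with the block), the adipocyte score or without both named libraries, and 0 to 4 with each library left out.

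Signs turned as follows. With transcript counts, *Hoxa4* in STZ-HFD was 0.11. With the muscle score, *Hoxd10* was 0.16, *Hoxb8* 0.51 and *Hoxd8* 0.47 in STZ-HFD, and *Hoxb8* -0.22 and *Hoxd8* -0.28 in db/db. *Hoxb8* in STZ-HFD was -0.74 to 0.057 with a library left out, the highest without replicate 4 of STZ-HFD. *Hoxc10* in db/db, -0.0026 in the reported fit, was 0.0071 in edgeR, 0.027 in DESeq2, 0.0099 with RLE size factors, 0.0072 with filterByExpr, 0.036 with no filter, 0.047 with the GC trend removed, 0.019 with the block as well, 0.0060 with transcript counts, 0.025 without ribosomal RNA genes, 0.16 with the adipocyte score, 0.0083 with each model alone and -0.15 to 0.082 with a library left out.

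With transcript counts, the share of cluster A was 27.3% in db/+, 26.7% in db/db and 21.1% in STZ-HFD, that of cluster D 9.04% in db/db, of groups 1 to 4 8.86% in db/db, of groups 5 to 8 33.8% in db/+, 38.0% in db/db, 33.0% in Con+Veh and 30.5% in STZ-HFD, of groups 9 to 13 58.0% and 58.6% in Con+Veh and STZ-HFD and of group 13 11.4% in db/+. With the longest transcript as length, cluster A was 25.9%, 25.2% and 22.5% in db/+, db/db and Con+Veh, groups 1 to 4 12.0% in db/+ and 9.29% in db/db, and group 13 9.26% in db/+. The cause of these shifts was not tested. The mean level from the gene table and the transcript table was 2.07 and 13.6 RPKM for *Hoxa7*, 8.21 and 24.1 for *Hoxc10*, and 0.590 and 0 for *Hoxa2*. It was 10.4 and 9.98 for *Hoxd8*, 4.34 and 10.3 for *Hoxd9*, and 3.42 and 7.23 for *Hoxa13*. The highest gene of clusters A and D thus changed with the counts used.

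Same-numbered libraries did not deviate together on average (mean correlation -0.0911 in the db mice and -0.111 in the others, against 0.0456 and 0.0376 for other pairs). Single pairs of db libraries ran from -0.280 to 0.453. With so few pairs, these values cannot decide whether the numbers pair the mice. With a replicate block all genes called went from 281 to 618 in db/db and from 441 to 38 in STZ-HFD, and 0 Hox genes were called.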
